A study of Mus musculus with 30 samples.

Results

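The 9 genes followed here had some of the largest RNA differences between 8 and 12 days post partum (dpp) in testis cells. They were followed across ages and genotypes: Tpbgl, Pcsk1n, Ly6k and Prss50, which were higher at 12 dpp, and Elf3, Aqp12, Lgals7, Zg16 and Cbln4, which were lower; the first 4 are called rising genes and the other 5 falling genes. They make up 9 of the 65534 genes and loci in the table, and they were chosen from their measured levels at 8 and 12 dpp. Their change between those ages is therefore a description of how they were picked, given here with no test. The libraries are polyadenylated RNA from germ cells enriched from the testes of male mice, strain C57BL/6J with less than 10% 129S1/SvImJ. Prdm9 -/- mice are homozygous for a mutant allele of Prdm9, whose product methylates histones where meiotic recombination will start; Prdm9 +/- mice carry 1 wild-type allele and Prdm9 +/+ mice carry no mutant allele. At 8 dpp 5 -/- libraries stood beside 2 +/- and 3 +/+, at 12 dpp 5 -/- beside 4 +/- and 1 +/+, and at 16 dpp 5 -/- beside 3 +/- and 2 +/+. Mutant here means -/-, and non-mutant means +/- or +/+. Levels are in TPM, transcript abundance corrected for transcript length and scaled to the same total in each library, so levels of different genes can be set side by side. The depth of each library is unknown.

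The first wave of spermatogenesis runs in near synchrony in young mice. Spermatogonia are the main germ cells at the first of these ages, leptotene and zygotene spermatocytes appear by the second, and pachytene spermatocytes by the third. Over the same days the Sertoli cells, the somatic cells that enclose the germ cells, stop dividing and mature, with less anti-Mullerian hormone and more androgen-dependent transcription. In bulk RNA, fewer cells of a type and less RNA per cell cannot be told apart.

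Germ cell markers were present in every group, but the libraries also held much Sertoli RNA. The 8 Sertoli markers (Sox9, Amh, Wt1, Clu, Rhox5, Cldn11, Dhh and Inha) summed to 4676 to 7174 TPM at 8 dpp, 6235 to 7774 at 12 dpp and 5934 to 7028 at 16 dpp, with no marker at 0 throughout a group. Clu made up most of the sum, with means of 3396, 5171 and 4706 TPM in mutants and 4064, 4881 and 4549 in non-mutants at 8, 12 and 16 dpp. The 8 leptotene and zygotene markers summed to 80.9 to 243 TPM, 341.7 to 683.4 and 859.3 to 1475 at the same ages. Within the Sertoli list, Amh, the anti-Mullerian hormone, averaged 569.9 TPM in mutants and 649 in non-mutants at 8 dpp, and 93.8 and 109.7 TPM at 16 dpp. Rhox5, an androgen-dependent homeobox gene, averaged 5.35 TPM in mutants and 5.15 in non-mutants at 8 dpp, and 88.1 and 94.2 TPM at 12 dpp. The part of Sertoli RNA in the levels given below was not tested. Prdm9 transcript was found in every -/- library, so its level does not show the loss of the protein, and stood at 6.89 to 12.8 TPM in mutants against 19.7 to 34.4 TPM in non-mutants at 16 dpp. Its difference was -1.24 on the log2 scale (SE 0.264, limma adjusted p = 0.00352). At 8 dpp the Prdm9 transcript did not lie lower in mutants, with means of 7.23 TPM in mutants and 4.80 in non-mutants. At that age 4 mutant libraries lay above every non-mutant one. In litter 13 at 12 dpp its level went against the labels, with 19.2 TPM in the library labelled -/- and 9.16 TPM in the library labelled +/-.

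Sequence upstream of the transcription start was in the RefSeq table (GRCm38.p6) for 7 of the 9 genes, all but Ly6k and Zg16. The 250 bases before the start are shown for 3 genes that were higher at 12 dpp and 2 that were lower, to set the promoters of the 2 kinds side by side. They are Tpbgl (chr7:99627104-99627353, minus strand), Pcsk1n (chrX:7919572-7919821, plus strand), Prss50 (chr9:110857717-110857966, plus strand), Aqp12 (chr1:93006084-93006333, plus strand) and Cbln4 (chr2:172043467-172043716, minus strand). Capitals mark matches, on either strand, to any of 4 motifs: CNCCTCAG, reported at targets of the meiotic initiator STRA8; CACGTG, the E-box; GGGCGG, the GC box; and TGACGTCA, the cyclic AMP response element.
Tpbgl: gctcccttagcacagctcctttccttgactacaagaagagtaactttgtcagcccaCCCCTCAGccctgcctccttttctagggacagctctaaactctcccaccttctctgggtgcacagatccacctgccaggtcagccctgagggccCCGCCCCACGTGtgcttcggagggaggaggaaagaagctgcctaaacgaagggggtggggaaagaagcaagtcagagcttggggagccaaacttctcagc
Pcsk1n: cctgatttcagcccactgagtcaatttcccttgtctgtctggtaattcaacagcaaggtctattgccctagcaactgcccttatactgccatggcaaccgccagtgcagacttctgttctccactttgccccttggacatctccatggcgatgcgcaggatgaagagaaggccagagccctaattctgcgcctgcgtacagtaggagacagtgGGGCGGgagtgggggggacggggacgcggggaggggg
Prss50: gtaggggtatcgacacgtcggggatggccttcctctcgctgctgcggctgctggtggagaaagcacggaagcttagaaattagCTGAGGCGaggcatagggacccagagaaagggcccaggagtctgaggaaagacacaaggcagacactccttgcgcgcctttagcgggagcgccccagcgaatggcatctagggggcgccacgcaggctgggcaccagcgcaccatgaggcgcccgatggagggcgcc
Aqp12: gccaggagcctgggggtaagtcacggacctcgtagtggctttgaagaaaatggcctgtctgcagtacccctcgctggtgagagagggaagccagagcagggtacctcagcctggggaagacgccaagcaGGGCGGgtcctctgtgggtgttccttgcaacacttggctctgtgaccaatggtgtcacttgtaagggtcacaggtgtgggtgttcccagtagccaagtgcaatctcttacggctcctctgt
Cbln4: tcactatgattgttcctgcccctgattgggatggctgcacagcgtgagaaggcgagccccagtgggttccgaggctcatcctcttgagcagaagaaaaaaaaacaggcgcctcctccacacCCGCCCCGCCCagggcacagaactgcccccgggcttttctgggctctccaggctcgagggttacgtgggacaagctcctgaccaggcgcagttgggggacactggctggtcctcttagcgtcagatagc
The Tpbgl window held CNCCTCAG (as CCCCTCAG, first base at -194 from the start), a GC box on the other strand at -100 and an E-box at -94, and Prss50 held CNCCTCAG on the other strand (as CTGAGGCG, at -167). These were the 2 of 7 members with CNCCTCAG, against 6.39% of 27025 gene promoters of that length. The E-box was in 1 of the 7 and in 6.05% of all, and TGACGTCA in 0 of the 7 and in 1.62% of all. The GC box was in 5 of the 7, Tpbgl, Pcsk1n, Aqp12, Lgals7 and Cbln4, against 32.9% of all; in Cbln4 it occurred at -129 and -124, overlapping by 1 base. The Elf3 window held none of the motifs. The GC content of the 7 windows was 57.2 to 64.0%, with a median of 52% over all. The ratio of observed to expected CpG was 0.72 in Prss50 and 0.20 in Tpbgl, with 0.38 as the median of all. The upstream window of Tpbgl runs into an exon of the lincRNA Gm10605, and those of Elf3 and Lgals7, which are not shown, into annotated exons of the genes themselves. A match is a description of the letters and not of binding.

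The genes that were higher at 12 dpp come first. Tpbgl (ENSMUSG00000096606, chromosome 7, 99624082 to 99627103, mm10) encodes a leucine-rich repeat membrane protein related to the trophoblast glycoprotein Tpbg. At 8 dpp it was nearly absent, at 1.40, 0.74, 0.51, 0.79 and 0.76 TPM in mutants against 0.51 and 1.63 in +/- and 0.24, 1.44 and 1.07 in +/+ libraries. At 12 dpp it had 55.96, 31.93, 23.07, 10.87 and 14 TPM in mutants against 48.55, 51.28, 15.04 and 16.73 in +/- and 37.7 in the +/+ library. At 16 dpp it had 49.1, 64.9, 88.4, 73.0 and 101.39 TPM in mutants, against 52.5, 78.7 and 86.3 in +/- and 53.3 and 61.8 in +/+ libraries. Every library of 12 dpp lay far above the highest of 8 dpp, which goes with how the gene was picked. The ranges of 16 and 12 dpp overlapped. Its mean at 12 dpp was 32.3 times that of 8 dpp in mutants and 34.6 times in non-mutants. The lincRNA Gm10605 overlaps the gene on the other strand, with a mean of 5.54 TPM over the 30 libraries, and whether strand was used in counting is not given in the sources used here.

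Pcsk1n (ENSMUSG00000039278, chromosome X, 7919822 to 7924410) encodes proSAAS, a secreted protein that inhibits the prohormone convertase PCSK1. It averaged 6.11 ± 4.24 TPM (SD, n = 5) in mutants and 6.48 ± 1.01 (SD, n = 5) in non-mutants at 8 dpp, then 86.5 ± 24.7 and 80.0 ± 8.75 at 12 dpp. At 16 dpp the mutants had 114, 127, 139, 107 and 162 TPM, against 118, 108 and 134 in +/- and 103 and 114 in +/+ libraries. Most of its level at 16 dpp was therefore reached by 12 dpp, and the ranges of 16 and 12 dpp overlapped. In mutants its 8 dpp level ran from 1 to 12.3 TPM, wider than the 4.94 to 7.77 TPM of non-mutants. Eras, on the other strand, overlaps it and averaged 1.77 TPM. Genes on the other strand also overlap Ly6k (Gm17189, 0.021 TPM), Elf3 (Gm26642, 0.338 TPM), Lgals7 (Gm10648) and Zg16 (Gm44939 and Gm22747), so the levels of these 6 members are uncertain to that extent.

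Ly6k (ENSMUSG00000044678, chromosome 15, 74796874 to 74799986) encodes a lipid-anchored surface protein of germ cells that male mice need for fertility. It had 16.99, 4.98, 3.73, 1.96 and 5.74 TPM in mutants at 8 dpp, against 1.66 and 12.5 in +/- and 1.75, 7.06 and 3.79 in +/+ libraries. At 12 dpp it had 58.8, 33.0, 74.3, 52.1 and 64.2 TPM in mutants, against 66.4, 35.8, 74.5 and 68.2 in +/- and 38.2 in the +/+ library. At 16 dpp it had 122, 157, 124, 109 and 154 TPM in mutants, against 137, 183 and 239 in +/- and 153 and 156 in +/+ libraries. Its level went up at each age with no overlap between neighbouring ages. Between 8 and 12 dpp this goes with how the gene was picked. The share of all rows without overlap between ages was not computed. At 16 dpp 3 of the 5 mutant libraries lay below every non-mutant one.

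Prss50 (ENSMUSG00000048752, chromosome 9, 110857967 to 110864629) encodes a testis protein of the serine protease family. It had 35.7, 9.89, 5.83, 1.69 and 11.7 TPM in mutants at 8 dpp, against 4.56 and 22.6 in +/- and 4.30, 12.3 and 15.2 in +/+ libraries. At 12 dpp it averaged 102 ± 33.0 TPM (SD, n = 5) in mutants and 100.8 ± 28.6 (SD, n = 5) in non-mutants. At 16 dpp it had 195, 189, 197, 166 and 207 TPM in mutants, against 170, 173 and 190 in +/- and 165 and 148 in +/+ libraries. Neighbouring ages did not overlap here either, with the same limits as for Ly6k. At 16 dpp 3 of the 5 mutant libraries lay above every non-mutant one, the opposite side from Ly6k. It had the highest mean of the 9 genes in mutants at 16 dpp, and in non-mutants its range lay inside that of Ly6k.

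Among the genes that were lower at 12 dpp, Lgals7 (ENSMUSG00000053522, chromosome 7, 28863853 to 28866284), which encodes galectin-7, a sugar-binding protein best known from stratified epithelia, was the most abundant. It had 46.3, 83.6, 99.4, 100.74 and 60.0 TPM in mutants at 8 dpp, against 98.3 and 51.7 in +/- and 91.0, 62.8 and 86.4 in +/+ libraries. It averaged 11.5 ± 6.42 TPM in mutants and 13.8 ± 5.79 in non-mutants at 12 dpp, and 4.62 ± 1.95 and 5.17 ± 2.16 at 16 dpp (SD, n = 5 each). It was the only one of the 5 to stay above 1 TPM in every library of 16 dpp.

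Elf3 (ENSMUSG00000003051, chromosome 1, 135253575 to 135258568) encodes an ETS-family transcription factor of epithelia. It had 6.40, 23.9, 23.4, 24.8 and 10.3 TPM in mutants at 8 dpp, against 26.3 and 10.3 in +/- and 13.2, 10.8 and 14.3 in +/+ libraries. All 10 libraries of 12 dpp lay between 0.64 and 3.27 TPM. At 16 dpp it averaged 0.74 ± 0.39 TPM in mutants and 1.14 ± 0.38 in non-mutants (SD, n = 5 each), and the ranges of 16 and 12 dpp overlapped.

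Aqp12 (ENSMUSG00000045091, chromosome 1, 93006334 to 93012269) encodes an aquaporin known from pancreatic acinar cells. It averaged 8.32 ± 3.38 TPM in mutants and 8.85 ± 2.81 in non-mutants at 8 dpp, and 0.73 ± 0.57 and 0.68 ± 0.48 at 12 dpp (SD, n = 5 each). At 16 dpp it was listed at 0 in 2 mutant libraries and reached at most 0.30 TPM in mutants, against 0.14 to 0.45 TPM in non-mutants. Cbln4 (ENSMUSG00000067578, chromosome 2, 172036233 to 172043466) encodes a secreted protein of the cerebellin family that acts at synapses in the brain. It had 1.61, 8.88, 12.7, 13.9 and 5.39 TPM in mutants at 8 dpp, against 8.64 and 3.71 in +/- and 9.59, 4.64 and 5.59 in +/+ libraries. The 8 markers of ductal and rete epithelium (Krt8, Krt18, Krt7, Krt19, Epcam, Cdh1, Pax8 and Cldn4) summed to 35.9 to 66.9 TPM at 8 dpp, 46.8 to 69.2 at 12 dpp and 43.8 to 82.8 at 16 dpp, none of them at 0 throughout a group. Epcam made up most of the sum, with means of 26.7, 47.6 and 58.5 TPM in mutants and 25.4, 47.7 and 57.6 in non-mutants at 8, 12 and 16 dpp. Krt8 went the other way, with 6.96, 2.26 and 1.28 TPM in mutants and 9.01, 2.67 and 1.46 in non-mutants, as did Krt18, with 6.96, 2.05 and 1.47 TPM in mutants and 9.13, 2.58 and 1.12 in non-mutants. Of other somatic cells, the 6 Leydig markers (Cyp17a1, Hsd3b1, Star, Cyp11a1, Insl3 and Hsd17b3) had lower median sums at 12 dpp. These were 419.4 and 217.2 TPM in mutants and 424.8 and 283.1 in non-mutants at 8 and 12 dpp. The 3 endothelium markers (Pecam1, Cdh5 and Kdr) had 80.8 and 59.4, and 70.8 and 55.1. The 4 macrophage markers (Cd68, Csf1r, Adgre1 and Lyz2) went the other way, at 30.9 and 33.4, and 25.8 and 46.0. The part of all these cells in the levels of the falling genes was not tested. No library of 12 dpp held more than 0.81 TPM of Cbln4, and none of 16 dpp more than 0.21 TPM.

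Zg16 (ENSMUSG00000049350, chromosome 7, 127050156 to 127087328) encodes a lectin of zymogen granules and intestinal mucus, and it was the member whose classes looked least alike at 8 dpp. It had 1.59, 5.65, 12.7, 10.9 and 3.66 TPM in mutants, against 3.15 and 2.05 in +/- and 2.85, 2.10 and 3.64 in +/+ libraries. The highest 2 mutant values set most of the difference between the means, and their libraries were also the highest 2 in Cbln4. At 12 dpp 4 mutant and 2 non-mutant libraries were listed at 0, and at 16 dpp 4 mutant and 5 non-mutant ones. The libraries of 8 dpp are among those that chose the members, so this difference between genotypes was not tested.

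**Figure D1:**
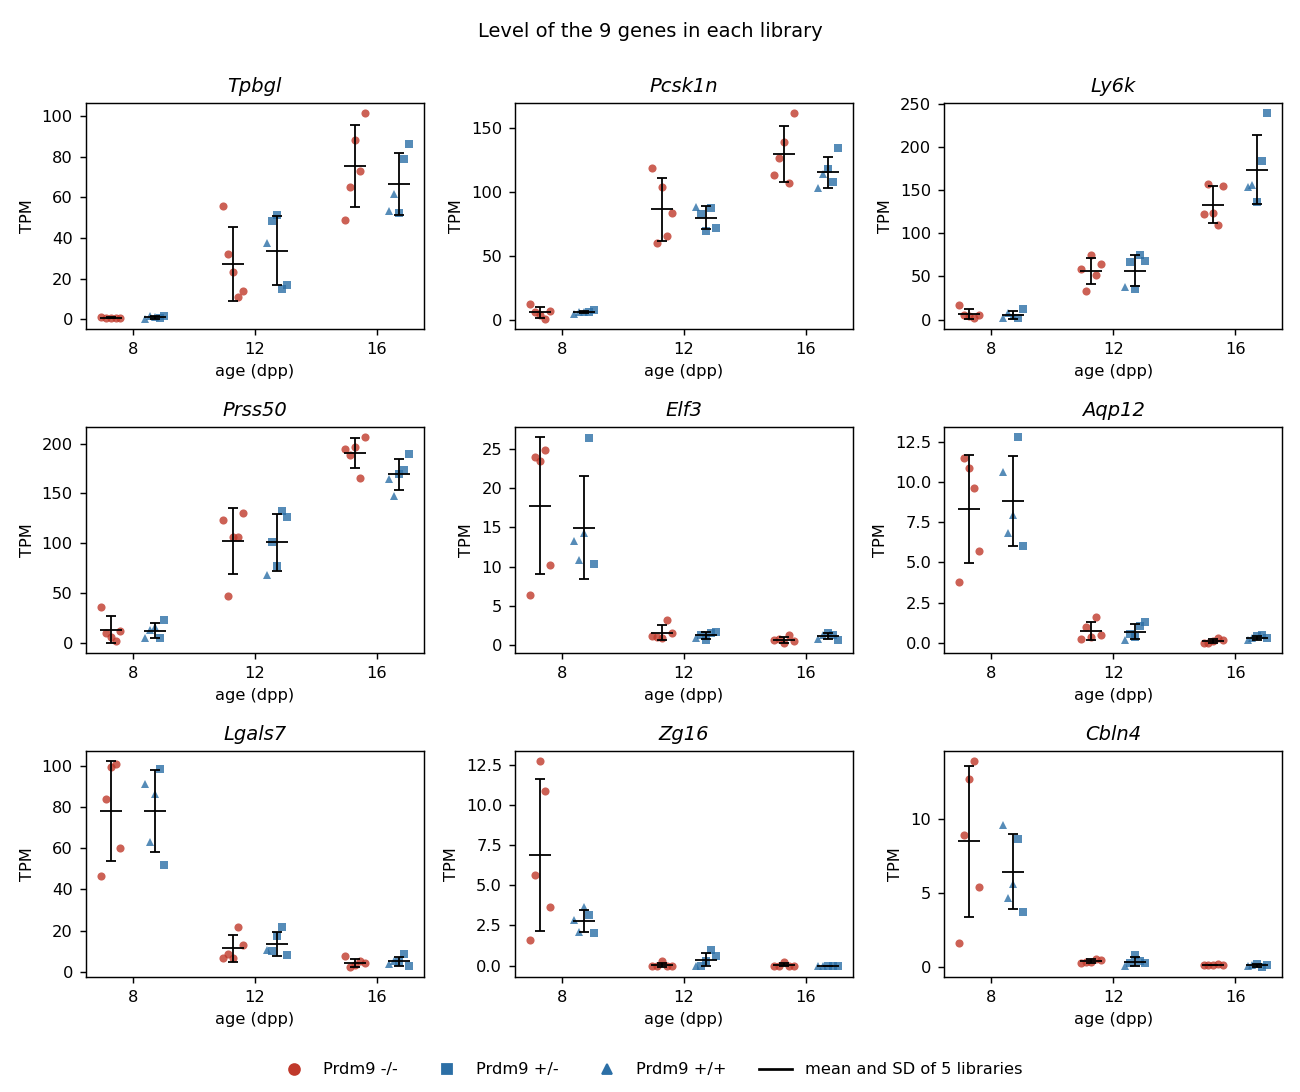
Each panel plots the TPM (y axis, linear) of 1 gene against age in dpp, with Prdm9 -/- libraries in red and non-mutant libraries in blue beside them; squares are +/- and triangles +/+ libraries, and bars give the mean and SD of 5 libraries. The first 4 panels climb with age in both genotype classes; of the other 5, Lgals7 is at 6.81 to 22.07 TPM at 12 dpp and at 2.56 to 8.71 at 16 dpp, and the rest are at 3.27 TPM or less from 12 dpp, with Zg16 at 12.7 and 10.9 TPM in 2 mutant libraries of 8 dpp.

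The rank of each change shows how far the choice reached into the table. Differences were taken of log2(TPM + 1), a scale that shrinks those of genes at low levels. The non-mutant step from 8 to 12 dpp ranked Tpbgl 2, Pcsk1n 5, Ly6k 6 and Prss50 8 among the rises of the 20021 rows that passed the filter on low values, a level above 1 TPM in 5 or more libraries. In mutants their ranks were 4, 3, 10 and 8. Among the falls Elf3 ranked 4 in mutants and 6 in non-mutants, Lgals7 5 and 10, Cbln4 7 and 11, and Aqp12 10 and 8. Zg16 ranked 6 in mutants and 111 in non-mutants, with steps of -2.66 and -1.49. The remaining steps were between 3.13 and 3.83 in mutants and between 3.18 and 4.03 in non-mutants for the rises, and between -2.75 and -2.40 in mutants and between -2.76 and -2.41 in non-mutants for the falls. The median step of all rows was 0.06 in mutants and 0.09 in non-mutants. Aqp12, Zg16 and Cbln4 passed the filter through the 8 dpp libraries; at the later ages Aqp12 was above 1 TPM in 3 libraries and the other 2 genes in none. With a pseudocount of 0.1 the steps were larger for the genes at low levels, at -5.39 in mutants and -3.16 in non-mutants for Zg16, -3.84 and -3.98 for Cbln4 and -3.49 and -3.71 for Aqp12. Without litter 13 the 12 dpp means of Tpbgl were 30.5 TPM in mutants and 38.1 in non-mutants, and those of Prss50 95.4 and 94.5. Without it Elf3 averaged 1.63 TPM in mutants and 1.15 in non-mutants, and Lgals7 11.1 and 15.1.

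From 12 to 16 dpp the 4 rising genes stayed higher and the others stayed low. The step of Ly6k was 1.26 in mutants and 1.64 in non-mutants on the log2 scale, that of Tpbgl 1.62 and 1.09, that of Prss50 0.97 and 0.78, and that of Pcsk1n 0.61 and 0.52. Lgals7 had steps of -1.10 in mutants and -1.24 in non-mutants, and the other falling genes had steps between -0.58 and -0.02 in mutants and between -0.40 and -0.07 in non-mutants; the step of Elf3 in non-mutants was 0.00 without +/- replicate 4 of 12 dpp, and that of Zg16 in mutants was 0.06 without mutant replicate 3 of 12 dpp. These steps share the 12 dpp libraries with the choice of the members and were not tested.

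The members moved together among libraries of the same age at 8 dpp. Across the 10 libraries, the log2 levels of the 4 rising genes correlated with each other at r = 0.411 to 0.909 (6 pairs), those of the 5 falling genes at 0.581 to 0.924 (10 pairs), and rising with falling genes at -0.931 to -0.479 (20 pairs). These libraries are among those that chose the members, and 4 of the 10 are of litter 8. All these genes share the libraries, and TPM values are shares of 1 total, so the correlations are descriptions only. Mutant replicate 1, of litter 3, had the highest level of 3 rising genes and the lowest of all 5 falling genes. Mutant replicate 4, of litter 10, had the lowest level of 2 rising genes and the highest of 2 falling genes. The summed leptotene and zygotene markers were 243 TPM in mutant replicate 1, the highest of 8 dpp, and 85.1 TPM in mutant replicate 4. The differentiating spermatogonia markers (Kit, Stra8, Dmrtb1, Sohlh1 and Sohlh2) summed to 426.2 and 114.1 TPM in the same libraries, the highest and the lowest of that age, and the Sertoli markers to 5209 and 4676 TPM. The part of these markers in the members' levels was not tested. Mutant replicate 1 had 35.7 TPM of Prss50, against 4.30 TPM in its litter mate, +/+ replicate 1. Without mutant replicate 1 the rising and falling genes correlated at -0.893 to -0.363 over 9 libraries.

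**Figure D2:**
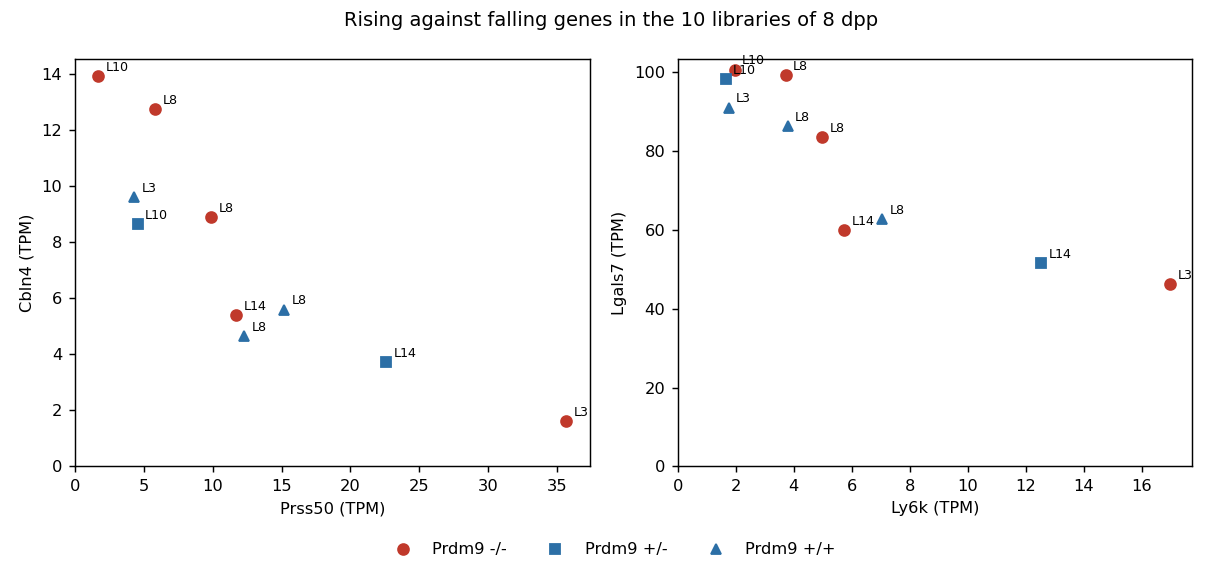
Each point is 1 of the 10 libraries of 8 dpp, labelled by litter (L), with Prdm9 -/- in red and non-mutants in blue (squares +/-, triangles +/+); the left panel plots Cbln4 against Prss50 and the right panel Lgals7 against Ly6k, all in TPM. Libraries with more of the rising gene have less of the falling one, from mutant replicate 4 (1.69 TPM of Prss50, 13.9 of Cbln4) to mutant replicate 1 (35.7 and 1.61).

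At 12 dpp the rising genes did not all correlate positively with each other. These libraries also chose the members and are litter mates in pairs, so the values are descriptions only. For Tpbgl the mates lay on the same side of their class means in 5 of 5 pairs. Ly6k and Prss50 correlated at r = 0.885 over the 10 libraries, while Tpbgl correlated at -0.419 with Ly6k, at -0.426 with Prss50 and at 0.281 with Pcsk1n. Over the 8 libraries without litter 13 these values were 0.874, -0.320, -0.279 and 0.271. Pcsk1n correlated at 0.517 with Ly6k and at 0.491 with Prss50. At 16 dpp the order was another, with 0.057 for Ly6k and Prss50, 0.705 for Tpbgl and Pcsk1n and 0.745 for Pcsk1n and Prss50. The falling genes had a median r of -0.044 with each other, against 0.298 at 12 dpp and 0.889 at 8 dpp. Of these, Aqp12, Zg16 and Cbln4 lay at 0 to 0.45 TPM at 16 dpp and at 0 to 1.62 TPM at 12 dpp. So close to 0 their correlations say little, and a loss of shared variation was not tested. For Tpbgl, litters 12 and 13 held the lowest 4 values, 10.87 and 14 TPM in the mutants and 15.04 and 16.73 TPM in their +/- mates, against 23.07 to 55.96 TPM in the mutants and 37.7 to 51.3 TPM in the non-mutants of litters 1, 9 and 11. The same litters were not low in Prss50, with 106 and 130 TPM in the mutants and 132 and 126 TPM in their mates. Litter 9 had the lowest Ly6k, at 33.0 TPM in the mutant and 35.8 in its +/- mate. The Sertoli marker sum was 7004 and 7561 TPM in the mutants of litters 12 and 13 and 6235 and 6251 TPM in their mates, against 7169 to 7488 and 6923 to 7774 TPM in the other litters. The leptotene and zygotene sum was 341.7 TPM in the mutant and 422.6 in its mate of litter 9, the lowest of that age; neither was tested for its part in these levels.

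**Figure D3:**
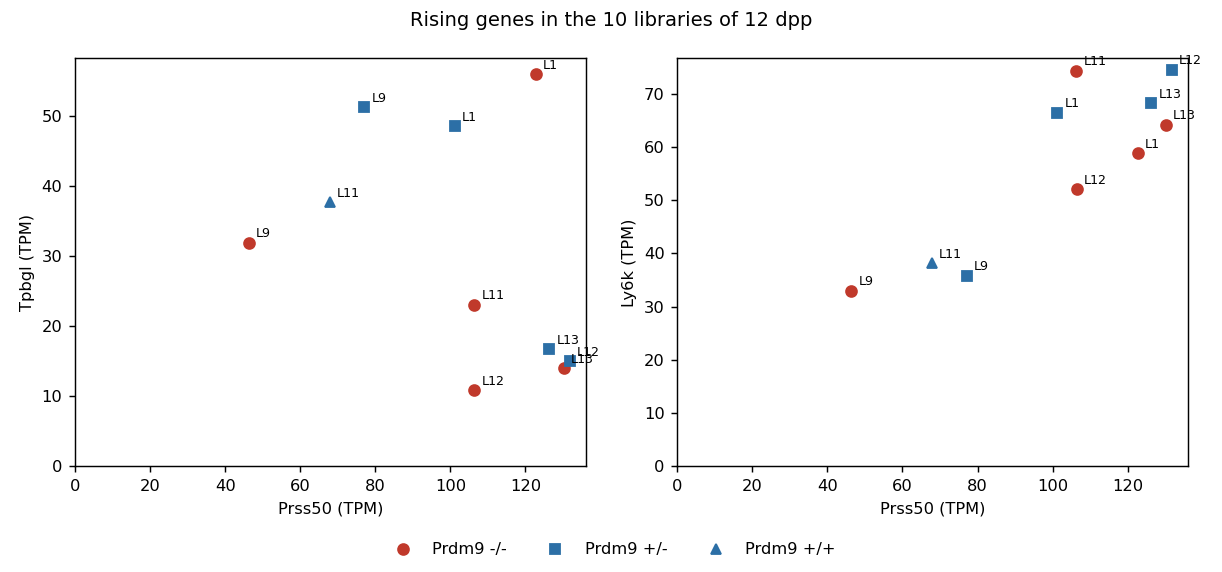
Each point is 1 of the 10 libraries of 12 dpp, labelled by litter (L), with Prdm9 -/- in red and non-mutants in blue (squares +/-, triangles +/+); the panels plot Tpbgl (left) and Ly6k (right) against Prss50, in TPM. Ly6k climbs with Prss50, while the 4 libraries of litters 12 and 13 sit low in Tpbgl, at 10.87 to 16.73 TPM, with Prss50 over 100 TPM.

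The rows most like each member over all 30 libraries, by Pearson's r of log2(TPM + 1), differed among the rising genes. Most like Ly6k were Sycp3 (0.992), Dpep3 (0.992) and Sycp2 (0.991), and most like Prss50 were Dpep3 (0.991), Zcwpw1 (0.991) and Fmr1nb (0.989). Sycp2 and Sycp3 encode proteins of the meiotic chromosome axis, Dpep3 a surface dipeptidase of germ cells, and Zcwpw1 a reader of the histone marks that PRDM9 places. Most like Tpbgl were 3 X-linked genes, Gja6 (0.978), Dmrtc1a (0.978) and Mcf2 (0.977), and most like Pcsk1n were Parvb (0.988), Eppin (0.984) and Lpar3 (0.982). Gja6 encodes a connexin of Sertoli cells and Eppin a protease inhibitor of Sertoli cells and epididymis. Gja6 averaged 0.62 TPM in mutants and 0.56 in non-mutants at 8 dpp, and 14.95 and 15.7 TPM at 12 dpp. Most like Elf3 were Aqp12 (0.984), Adamts16 (0.973) and Cbln4 (0.969), so 2 of the 3 were members. Aqp12 was closest to Elf3, Dsc2 (0.977) and A2m (0.976), Zg16 to Cbln4 (0.957) and Adamts16 (0.957), and Cbln4 to Adamts16 (0.987) and Tspan15 (0.977). Lgals7 was closest to S1pr1 (0.974), Hsd17b1 (0.971) and Mmp2 (0.970), a receptor of sphingosine phosphate, a steroid dehydrogenase and a matrix protease. All these values rest mostly on the difference between the ages.

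The genotype difference at 16 dpp was tested, since none of those libraries chose the members. All 9 genes were measured by the same fit, and limma called 0 of them at an adjusted p under 0.05; 0 had an unadjusted p under 0.05. Aqp12, Zg16 and Cbln4 lay at 0 to 0.45 TPM at 16 dpp, too low for a call to be likely, and Elf3 lay at 0.32 to 1.60 TPM. With 3.26% of all rows called, 0 calls among so few genes is near that share and says little about them. Of all 20021 rows, 3.26% were called, 0.509% higher and 2.75% lower in mutants, or 653 rows; 382 were called without +/- replicate 2 of 16 dpp and 366 without +/- replicate 3. The log2 difference was -0.37 for Ly6k (SE 0.378, 95% interval -1.14 to 0.41, limma adjusted p = 0.75), whose mean was 133 ± 21.04 TPM in mutants and 174 ± 40.3 in non-mutants (SD, n = 5 each). For Prss50 it was 0.17 (SE 0.435, interval -0.72 to 1.06, limma adjusted p = 0.91), with means of 190 ± 15.4 TPM in mutants and 169 ± 15.3 in non-mutants (SD, n = 5 each). Tpbgl differed by 0.16 (interval -0.53 to 0.86) and Pcsk1n, the X-linked member, by 0.16 (interval -0.42 to 0.73). The falling genes differed by -0.31 for Elf3, -0.24 for Aqp12, -0.14 for Lgals7, 0.06 for Zg16 and 0.04 for Cbln4, with limma adjusted p between 0.72 and 0.97. With a pseudocount of 0.1 in place of 1 the differences were -1.09 for Aqp12 (limma adjusted p = 0.328), -0.63 for Elf3 (limma adjusted p = 0.554), 0.33 for Zg16 and 0.29 for Cbln4. None of these p-values shows that the genotypes were equal, and the intervals reach past -1 on the log2 scale for Ly6k and past 1 for Prss50. The median difference of the 9 was 0.04, against 0.07 for all rows.

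**Figure D4:**
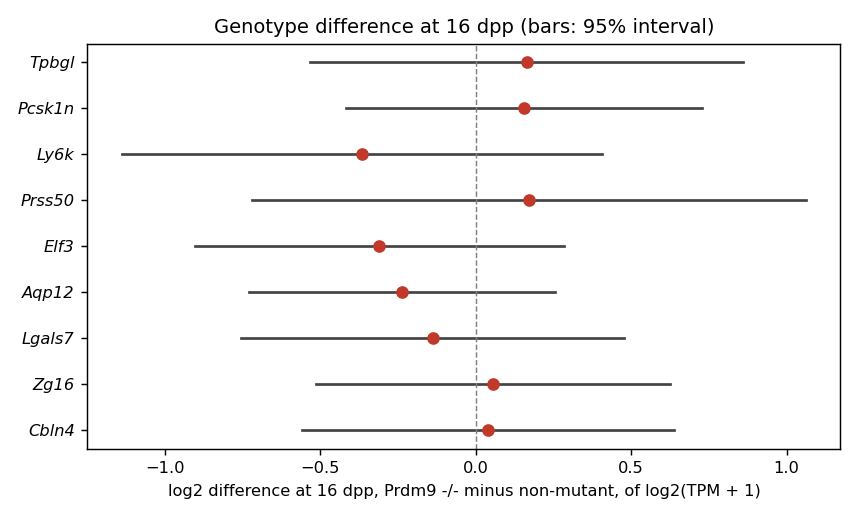
The points give the difference of log2(TPM + 1) at 16 dpp, Prdm9 -/- minus non-mutant, for each of the 9 genes, and the bars its 95% interval from limma's fit of all 30 libraries. Every interval spans 0, and the differences run from -0.37 for Ly6k to 0.17 for Prss50.

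The spread in that fit is pooled over the ages, and Ly6k and Prss50 varied most at 8 dpp. With the 16 dpp libraries alone the interval of Ly6k was -0.68 to -0.05 and that of Prss50 0.00 to 0.34, at limma adjusted p = 0.287 and 0.349, and 2 of the 9 genes had an unadjusted p under 0.05. With the litter as a block they were at -0.62 to -0.11 and 0.02 to 0.33, at limma adjusted p = 0.12 and 0.193. An exact two-sided permutation test of the 5 against 5 libraries gave unadjusted p = 0.0714 for Ly6k, 0.0794 for Prss50 and 0.0635 for Aqp12, and 0.167 to 1 for the others. The smallest it can give is 0.00794. This test took the libraries as unpaired, although each litter of 16 dpp gave a mutant and a non-mutant library. A permutation within litters, whose smallest p is larger, was not run. Because Ly6k and Prss50 lay on opposite sides, their ratio within a library was read after the values were seen and without a test. Ly6k over Prss50 was 0.70 ± 0.09 in mutants and 1.02 ± 0.17 in non-mutants (SD, n = 5 each), with ranges of 0.63 to 0.83 and 0.81 to 1.26.

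Relatives of the members were read from 8 lists of families and pathways, without the members. Among 67 relatives with a row, 38 passed the filter, and at 16 dpp limma called 0 higher (5 at an unadjusted p under 0.05) and 4 lower in mutants. The 4 were Lypd4, a Ly6-family gene of the testis (-2.37, SE 0.311, limma adjusted p = 4.6e-06), the testis serine protease genes Prss45 (-1.61, SE 0.268, limma adjusted p = 0.000168) and Prss44 (-1.03, SE 0.252, limma adjusted p = 0.0133), and Pcsk4, the proprotein convertase of sperm (-0.94, SE 0.228, limma adjusted p = 0.0123). Lypd4 averaged 2.64 ± 0.33 TPM in mutants and 22.5 ± 16.8 in non-mutants (SD, n = 5 each), and Prss45 averaged 1.14 ± 0.39 TPM in mutants and 6.44 ± 4.10 in non-mutants. Without +/- replicate 2 of 16 dpp Prss44 and Pcsk4 lost their calls, at -0.86 (limma adjusted p = 0.0876) and -0.83 (limma adjusted p = 0.0734), and without +/- replicate 3 at -0.82 (limma adjusted p = 0.0972) and -0.71 (limma adjusted p = 0.0891); Prss44 also lost it without mutant replicate 1, at limma adjusted p = 0.0619. With the litter as a block Prss45 stood at limma adjusted p = 0.0508. With the 16 dpp libraries alone Prss44 and Pcsk4 also lost their calls, at limma adjusted p = 0.154 and 0.125. Prss44 lost its call with a pseudocount of 0.1 as well, at limma adjusted p = 0.17. With +/+ libraries as the only controls the differences of Prss44 and Pcsk4 were -0.70 and -0.58. The 6 pachytene markers (Ldhc, Piwil1, Pgk2, Adam2, Tdrd6 and Spag6l) summed to 7.99 to 13.5 TPM in mutants and 76.0 to 889 TPM in non-mutants at 16 dpp, and their part in these differences was not tested. By list, those called lower were 2 of 3 tested serine proteases, 1 of 10 in the Ly6 list and 1 of 7 convertases and granule genes. Of all 20021 rows 2.75% were called lower. Only 3 of the 11 serine protease rows passed the filter, so these counts are small. Prss50, Ly6k and Pcsk1n were not called. The difference between relatives and members was not tested. Neither the 3 other ETS and ELF genes, the 5 aquaporins, the 6 galectins, the 3 cerebellins nor Tpbg were called. Tex101, the surface protein that pairs with LY6K in the mouse, was the most abundant of the Ly6 list, at 667 ± 66.7 TPM in mutants and 760 ± 137 in non-mutants at 16 dpp (SD, n = 5 each), a difference of -0.18 (SE 0.298, limma adjusted p = 0.861). The other most abundant relatives were Prss42 at a mean of 1.48 TPM over the 30 libraries, Furin at 69.2, Elf2 at 110.3, Aqp5 at 8.54, Lgals1 at 331, Cbln1 at 10.4 and Tpbg at 5.39. From 8 to 12 dpp Tex101 had steps of 2.41 in mutants and 2.40 in non-mutants and Tpbg of -0.78 and -0.92, opposite in sign to Tpbgl.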

How the data were processed

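RNA from 30 libraries of 14 litters was analysed. The deposited values are TPM per gene; the submitters' processing notes name Bowtie 1.0.0 and RSEM 1.2.8, and strand use is not given in the sources used here. TPM keeps no depth, so no counting intervals are given. The 9 genes, the families and the marker lists were chosen with earlier results of these data known. Named genes are the members, Prdm9, the 3 rows most correlated with each member, and from each family the most abundant gene and those called. 1 of the correlated rows is not reported here. Locations are from GENCODE M21 (mm10).

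Values were analysed as log2(TPM + 1) with limma 3.58.1 in R 4.3.3: 6 groups (2 genotype classes at 3 ages), trended variance, rows over 1 TPM in at least 5 libraries, and Benjamini-Hochberg adjustment over 20021 rows at 0.05. The header gives each library's litter. Deviations of litter mates at 16 dpp correlated at 0.133 to 0.357 in 5 of 5 pairs, so a fit with the litter as a block was also made. No source says how many animals gave each library, so p-values measure the spread between libraries.

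Alternatives changed the pseudocount, filter, scaling, controls and litter term, used the 16 dpp libraries alone, or left out each library; leaving out litter 13 was chosen after seeing the data.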

Additional observations from a re-analysis of the deposited data

Results flagged for a closer look

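Of 54 groups of 5 libraries (9 genes, 2 genotype classes, 3 ages), 6 had a library far from the others, and chance flags about 1 in 20 where values are not at the floor. Ly6k stood at 16.99 TPM in mutant replicate 1 of 8 dpp, with 1.96 to 5.74 TPM in the other mutants. Prss50 stood at 46.3 TPM in mutant replicate 2 of 12 dpp, with 106.35 to 130.21 TPM in the others. Elf3 stood at 26.32 TPM in +/- replicate 1 of 8 dpp, with 10.28 to 14.27 TPM in the other non-mutants. Elf3 also stood at 3.27 TPM in mutant replicate 4 of 12 dpp, with 0.99 to 1.51 TPM in the others. Zg16 was listed at 0.3 TPM in mutant replicate 3 of 12 dpp and at 0.21 TPM in mutant replicate 3 of 16 dpp, and at 0 in the other mutants of those ages, where any value above 0 stands apart.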

How the results depend on the processing

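None of the 9 genes was called at 16 dpp in any of 41 alternatives (0 in each). These include the litter as a replicate block, which called 583 of all rows and ended no member's call. Aqp12, Zg16 and Cbln4 lay at 0 to 0.45 TPM at 16 dpp, too low for a call to be likely under any setting. Leaving out a library of 8 or 12 dpp cannot change the 16 dpp difference itself. The 653 rows called became 1181 with no filter, 1103 with litter as a random effect, 347 with the 16 dpp libraries alone and 169 with +/+ libraries as the only controls, and ranged from 366 to 781 when 1 library was left out. With no filter more rows were tested, so the counts 1181 and 653 are not shares of the same total. The split of higher and lower rows was 54 and 703 with median-ratio scaling. The 16 dpp difference of Lgals7 ranged from -0.308 to 0.0409 when 1 library was left out. The Elf3 step from 12 to 16 dpp in non-mutants was 0.000783 without litter 13 and ranged from -0.183 to 0.0035, and that of Zg16 in mutants from -0.0757 to 0.055, when 1 library was left out. Of 1224 alternative values of the steps between ages 15 moved by more than the residual SD, all with a pseudocount of 0.1, and 4 changed sign. Most of the 1224 come from leaving out 1 library, and a library outside both groups of a step cannot change that step. The total therefore overstates how far the steps were tried. The cause of the sign changes was not tested. With that pseudocount the steps from 12 to 16 dpp were -1.89 in mutants and -0.73 in non-mutants for Aqp12, -1.13 and -1.11 for Cbln4, and -1.64 in non-mutants for Zg16, and the steps from 8 to 12 dpp were 4.68 in mutants and 5.03 in non-mutants for Tpbgl and -3.34 and -3.45 for Elf3. With +/+ libraries as the only controls the difference of Prdm9 had limma adjusted p = 0.0904. With 300 bases in place of 250, CNCCTCAG was in 7.97% of promoters.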

Other observations

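Gml, the gene next to Ly6k on chromosome 15 (13466 bases away), had steps of 2.11 in mutants and 2.32 in non-mutants from 8 to 12 dpp, and a difference of -0.78 at 16 dpp (SE 0.262, limma adjusted p = 0.122), which was not called. Prss46, 1445 bases from Prss50, averaged 0.203 TPM over the 30 libraries, and Tmie, 1082 bases on its other side, averaged 13.5 TPM with steps of 1.09 in mutants and 0.93 in non-mutants. These neighbours were named after their values were seen.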
